A study of Homo sapiens with 23 samples.

Results

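Nascent-strand sites of late S phase were set against those of middle S phase in K562, an established human cell line from a chronic myelogenous leukemia. Nascent strands are short pieces of newly made DNA that carry an RNA primer and so resist λ-exonuclease, and a region rich in them marks a place where replication starts. The members were all deposited peaks on chromosomes 1 to 22 and X, 81959 in the late S list and 67803 in the middle S list, from 2 of the 23 samples of the series. The series asks how SIRT1 phosphorylated at T530, a NAD-dependent deacetylase, relates to replication initiation in K562 and in HCT116 colon carcinoma cells. The labels describe both libraries as K562 cells fractionated by S-phase stage, and name no treatment, edited gene or antibody for either. The extraction protocol given for these samples speaks of asynchronous cultures, and a cell separation method is stated for the ChIP samples but not for these, so the stages rest on the sample descriptions. Early S nascent strands (73296 peaks) and 11 K562 ChIP-seq lists of the series served as position references, and the HCT116 lists and genomic DNA were not analysed here. Peak lists hold no gene expression, so the labelled cell line could not be checked against markers. Each fraction gave 1 library, so there is no replicate, no p-value was computed, and every difference below is between these libraries. Intervals of 95% (Wilson for shares, exact binomial for ratios) cover counting error only, and neighbouring peaks are not independent counts.

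DNA replication starts at many places along each chromosome, and a given start site is used in only some of the cells. Regions rich in active genes tend to replicate early in S phase and gene-poor regions late. The helicase that opens DNA at start sites contains MCM2, which is loaded before S phase and phosphorylated when helicases are set to fire. Chromosomes 17, 19 and 22 are known as gene-dense chromosomes, and chromosomes 4, 13 and 18 as gene-poor ones.

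The late S list held more and narrower sites than the middle S list, while both lists held nearly the same number of reads. The ratio of peak numbers was 1.21 (95% interval 1.20 to 1.22). By covered length the ratio was 1.07, with 194 Mb in late S against 182 Mb in middle S. Reads within peaks came to 6810838 in late S and 6793423 in middle S, a ratio of 1.003. Median width was 2000 bp in late S (quartiles 1200 and 3000 bp) and 2200 bp in middle S (1400 and 3200 bp). Wide regions were fewer in late S, where 410 peaks reached 10 kb against 765 in middle S. The median peak held 62 reads in late S and 69 in middle S. The smallest regions, of 200 bp, held at least 20 reads in late S and at least 21 in middle S, so the callers' lower limits were close. Depth outside the peaks is unknown, so more start sites and a difference in depth or peak calling cannot be told apart.

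About as many late S sites were shared with middle S as were not. Of the late S peaks, 41649 (50.8%, 50.5 to 51.2) overlapped a middle S peak by at least 1 bp, and 40310 did not. Of the shorter middle S list, 41076 peaks (60.6%, 60.2 to 60.9) overlapped a late S peak and 26727 did not. With the longer list cut to its strongest peaks so that both had equal lengths, the shares were 55.2% of late S and 55.2% of middle S peaks. Shared peaks held 64.1% of the late S reads in peaks and 69.6% of the middle S reads. Peaks of late S alone had a median of 53 reads and 1800 bp, against 77 reads and 2200 bp for shared peaks of that list. In middle S the medians were 59 reads and 2000 bp for peaks of middle S alone and 78 reads and 2400 bp for shared ones. Peaks found in one list were thus smaller and weaker than shared ones, in both lists.

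Sharing grew with read count. Among the 10% of late S peaks with the fewest reads (20 to 38), 28.2% were shared, and among the 10% with the most (137 or more), 88.6% were. For middle S these shares were 40.7% (21 to 41 reads) and 80.5% (177 reads or more). Width made less difference over most of its range. From the narrowest to the widest 10% of peaks, sharing grew from 37.6 to 77.8% in late S and from 47.5 to 78.3% in middle S. The strongest middle S peaks were therefore missing from late S more often than the strongest late S peaks were missing from middle S, although the late S list is longer.

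**Figure D1:**
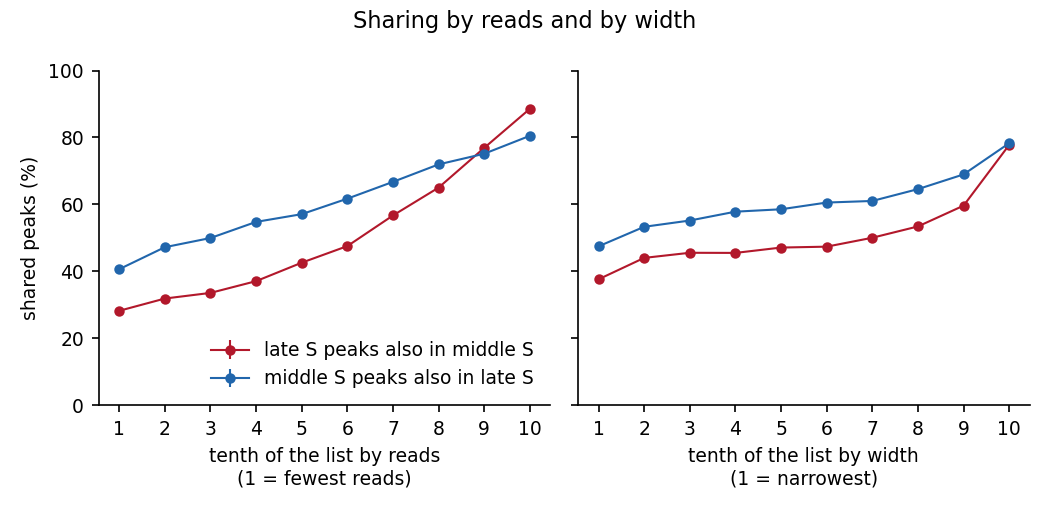
Percent of peaks that overlap the other list by at least 1 bp, for late S peaks (red) and middle S peaks (blue), in 10 groups of near equal size ordered by reads (left) or by width (right). Bars are 95% Wilson intervals and are mostly smaller than the points. Sharing grows from 28.2 to 88.6% with reads in late S and from 40.7 to 80.5% in middle S.

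Unshared sites mostly lay some distance from the other list and were not near misses. The nearest middle S peak was a median of 11.2 kb away from a peak of late S alone, and 5.93% lay within 1 kb. The nearest late S peak was a median of 8.8 kb away from a peak of middle S alone, and 7.30% lay within 1 kb. Within 5 kb lay 29.3% of the peaks of late S alone and 34.4% of those of middle S alone. More than 50 kb away were 13.4% of the peaks of late S alone and 8.31% of those of middle S alone. For scale, the median gap between neighbouring peaks of one list was 14 kb in late S and 16.2 kb in middle S.

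Where sites were shared, their size was alike on the whole but varied from site to site. There were 35772 pairs in which 1 late S peak overlapped exactly 1 middle S peak and the reverse. Their median width was 2200 bp in late S and 2200 bp in middle S, with a median width ratio of 1 and quartiles of 0.641 and 1.40. In 15252 pairs (42.6%) the late S peak was wider, in 17580 (49.1%) the middle S peak was wider, and 2940 had equal widths. Only 1408 pairs (3.94%) had the same start and end on the 200 bp grid, and their middles lay a median of 400 bp apart. The middle S peak was wider in 57.7% of the 20% of pairs with the most reads, against 45.5% of the 20% with the fewest. Late S peaks that spanned several middle S peaks numbered 1662 (2.03%), and middle S peaks that spanned several late S peaks numbered 2269 (3.35%). Among the pairs with the most reads the middle S peak was thus more often the wider one. Over whole lists more middle S peaks spanned several late S peaks than the reverse. The late S list holds more peaks that can be spanned, and these counts were not set to equal list lengths.

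Reads at most shared sites differed by less than 2-fold. Read ratios were set relative to the median pair, whose late over middle ratio was 0.966. On that scale 30976 of the 35772 pairs (86.6%) lay within 2-fold, with quartiles at 0.752 and 1.33. Reads were at least 2-fold higher in late S at 2304 pairs (percent called 6.44) and at least 2-fold lower at 2492 (percent called 6.97). This split depends on the scale, and with reads divided by list totals it was 2890 higher and 2073 lower. The values nearest the limits among pairs with at least 100 reads in both lists together were 2 inside and 1.999 outside on the high side, and 0.5 inside and 0.501 outside on the low side.

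These read differences went with peak width. In pairs 2-fold higher in late S the median width was 3800 bp in late S and 1200 bp in middle S, and in 96.5% of them the widths differed by 1.5-fold or more. For pairs 2-fold lower in late S these medians were 1200 bp in late S and 4400 bp in middle S, and the share was 98.7%. Among pairs within 2-fold, 43.2% had such a width difference. Read density moved the other way, with a median late over middle ratio of reads per kb of 0.811 in the pairs called higher and 1.21 in the pairs called lower. Where the widths were within 1.5-fold, 66 pairs were 2-fold higher and 45 were 2-fold lower among 17699, with the scale reset to the median of those pairs. Reads were counted by the authors within each list's own peak limits, so how far a site's limits were drawn and how much it was used cannot be told apart.

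**Figure D2:**
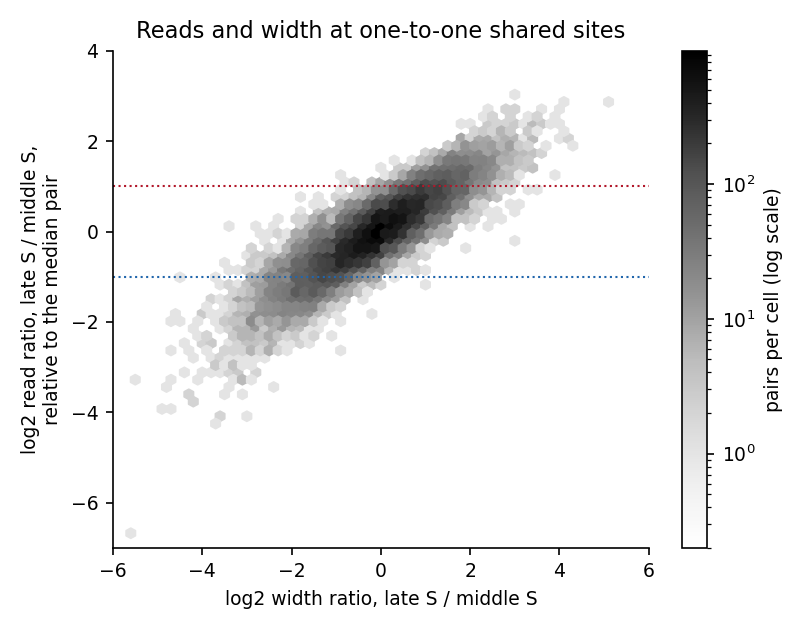
Each cell counts one-to-one shared sites by the log2 ratio of their widths (horizontal axis) and the log2 ratio of their reads relative to the median pair (vertical axis), late S over middle S, with darker cells holding more pairs. Dotted lines mark 2-fold higher (red) and 2-fold lower (blue). Pairs past a line lie almost wholly where the widths differ too, as in 96.5 and 98.7% of the pairs called higher and lower.

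The strongest single differences between shared sites also went with width, but not always with the opposite move in read density. Among pairs with at least 100 reads in both lists together, the highest ratio was 8.60, at 91433001 to 91454800 of chromosome 13 (hg19), where late S had 839 reads over 21800 bp and the middle S peak inside it 101 reads over 2800 bp. Next came 57431601 to 57441200 of chromosome 6, with 316 reads in late S against 47 in middle S and a ratio of 6.96. The lowest ratio was 0.00948, next to the centromere of chromosome 4. There late S had 237 reads at 49336801 to 49338400, against 25891 reads at 49262201 to 49338800 in middle S, the highest count of that list. The early S list had no peak over that middle S region. The next lowest ratio was 0.0531 on chromosome 11, with 58 reads at 57100601 to 57102600 in late S against 1132 reads at 57073601 to 57101400 in middle S. Of the 10 pairs named by the rule, each of the 5 highest was wider in late S and each of the 5 lowest was wider in middle S. Reads per kb were lower in late S in each of the 5 lowest, with 148 against 338 in middle S for the pair on chromosome 4. In the highest pair reads per kb were 38.5 in late S against 36.1 in middle S, and in the rest of the 5 highest they were lower in late S.

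Some of the highest counts were alike in both lists and others were not. On chromosome 22, the region from 22405401 to 22489800 had 9251 reads in late S and 9308 in middle S. A short stretch near the start of chromosome 1, from 564401 to 575400 in late S and to 577200 in middle S, had 8967 reads in late S against 21351 in middle S. At 11068201 to 11153200 of chromosome 21, late S had 11674 reads against 5977 for the middle S region that overlaps it. How uniquely reads can be placed in these and the other named regions was not tested.

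Among peaks of late S alone, the one with the most reads lay at 81222801 to 81241200 of chromosome 13, with 1304 reads. It lay 1.0 kb from the nearest middle S peak, and early S had 1912 reads there. The next had 1192 reads at 9709001 to 9724000 of chromosome 21, and 1177 reads within only 800 bp at 95001 to 95800 of chromosome 12. Among peaks of middle S alone, 2 of the 5 with the most reads lay near the end of the long arm of chromosome 3. They had 2828 reads at 195501201 to 195518400 and 2200 reads at 195428401 to 195450600, and lay 41.6 and 109.4 kb from the nearest late S peak. Neither of those chromosome 3 sites had an early S peak. The others were at 142535401 to 142544800 of chromosome 1 with 2256 reads, at 1257001 to 1279800 of chromosome 11 with 1978 reads, and at 57593601 to 57621800 of chromosome 12 with 1903 reads.

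The chromosomes' shares of peaks differed between the lists. Each chromosome's share of the late S list was divided by its share of the middle S list. The lowest ratios were on chromosomes 19, 22 and 17, and these 3 of 23 (percent called 13.0) were the ones at or below 0.8. Chromosome 19 had 1101 peaks in late S and 1312 in middle S, a ratio of 0.694 (0.640 to 0.753). Chromosome 22 had 512 in late S and 609 in middle S, a ratio of 0.696 (0.617 to 0.784). Chromosome 17 had 1675 in late S and 1883 in middle S, a ratio of 0.736 (0.689 to 0.786). Chromosome 15 lay just outside the limit, at 0.802. These chromosomes had fewer peaks in late S than in middle S, although the late S list was longer as a whole.

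No chromosome reached the inverse of 0.8 (percent called 0), and the highest ratios were on chromosomes 18, 5 and 7. Chromosome 18 had 2589 peaks in late S and 1827 in middle S, a ratio of 1.17 (1.10 to 1.245). Chromosome 5 had 7224 in late S and 5184 in middle S, a ratio of 1.15 (1.11 to 1.19). Chromosome 7 had 6354 in late S and 4803 in middle S, a ratio of 1.09 (1.05 to 1.14). The counting interval lay above 1 for 6 chromosomes and below 1 for 9. Gene-poor chromosomes did not all go the same way, with 1.08 (0.999 to 1.17) on chromosome 4 and 0.930 (0.850 to 1.02) on chromosome 13. Chromosome X was at 0.877 (0.814 to 0.944). A link of these ratios with gene density was not tested. With early S, which the ratios did not use, chromosome 19 held 1.53% of the early S list, 1.94% of the middle S list and 1.34% of the late S list. Chromosome 18 held 2.99% of the early S list, 2.69% of the middle S list and 3.16% of the late S list. On both chromosomes the early S share thus lay between those of late S and middle S. Both were chosen as extreme in those lists, so this is a description only. Early S lay outside the late S and middle S shares on chromosomes 1, 3, 4, 11, 13, 21 and X, and between them on the others.

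**Figure D3:**
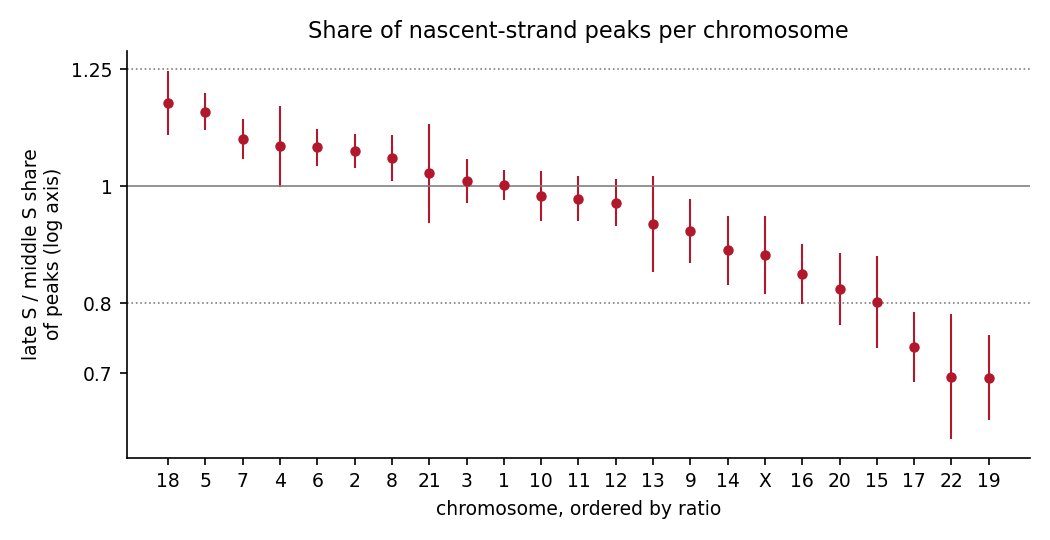
Share of late S peaks divided by share of middle S peaks for each chromosome, on a log axis, ordered by ratio. Bars are exact 95% binomial intervals (counting error only), and dotted lines mark 0.8 and its inverse. Chromosomes 17, 22 and 19 lie below 0.8, and chromosome 18 is highest at 1.17.

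Reads at shared sites varied across chromosomes in a similar way, though not in the same order. The median relative read ratio of shared pairs was lowest on chromosome 19, at 0.798 over 575 pairs, and highest on chromosome 7, at 1.07 over 2671 pairs. Chromosome 13 was above 1 by pair reads (1.02) and below 1 by peaks, and chromosome 4 was at 0.997 by pair reads and above 1 by peaks. Across the 23 chromosomes its logarithm had a Pearson r of 0.938 with the logarithm of the peak ratio, a description of 2 measures from the same libraries.

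On chromosomes 13 and 4 the direction depended on what was counted. By peaks the ratio of chromosome 13 was 0.930, but by covered length it was 1.31 and by reads 1.49. A single stretch of 90 to 94 Mb held much of this difference. It had 101 peaks of median width 15000 bp in late S, against 175 peaks of 5200 bp in middle S, so fewer but longer regions. Covered length there was 2215 kb in late S and 1273 kb in middle S, and reads were 119016 in late S and 66088 in middle S. The whole rest of the chromosome had 83092 reads in late S and 69235 in middle S, with median widths of 1400 and 1800 bp. Genomic DNA was not analysed here, so the part of DNA copy number in these counts and widths was not tested. Without this stretch the chromosome 13 ratios were 1.04 by peaks, 1.07 by covered length and 1.20 by reads. For chromosome 4 the ratio was 1.08 by peaks and 0.833 by reads, and without the 1 Mb bin next to its centromere it was 1.05 by reads.

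Within chromosomes, the shares of peaks differed by region. The genome was divided into 1 Mb bins, and 2222 bins with at least 20 peaks in both lists together were compared, again as late over middle share. They held 94.9% of the late S peaks and 96.0% of the middle S peaks, with a median of 32 peaks per bin in late S and 27 in middle S. The share ratio was at least 2 in 136 bins (percent called 6.12) and at most 0.5 in 92 bins (percent called 4.14). Counting intervals excluded 1 for 94 of the 136 and for 60 of the 92, against 295 of all 2222 bins. The intervals use the same counts that chose the bins, so they are a description only. By covered length in place of peaks, 215 bins were higher and 196 lower, and scaled within each chromosome 120 were higher and 58 lower. With only the 50% of peaks with most reads in each list, 113 bins were higher and 94 lower among 1480, but few of the bins called with all peaks could then be compared. Of the 136 higher bins 24 still had 20 peaks, of which 16 were called again, and of the 92 lower bins 42 did, of which 32 were called again. All 24 and all 42 kept their direction, though these peaks are part of those that chose the bins. The bins nearest the limits had ratios of 2.01 inside and 1.999 outside on the high side, and of 0.496 inside and 0.504 outside on the low side. Bins higher in late S had a median of 24.5 peaks in late S against 8 in middle S, and bins lower in late S had 11 in late S against 21 in middle S.

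**Figure D4:**
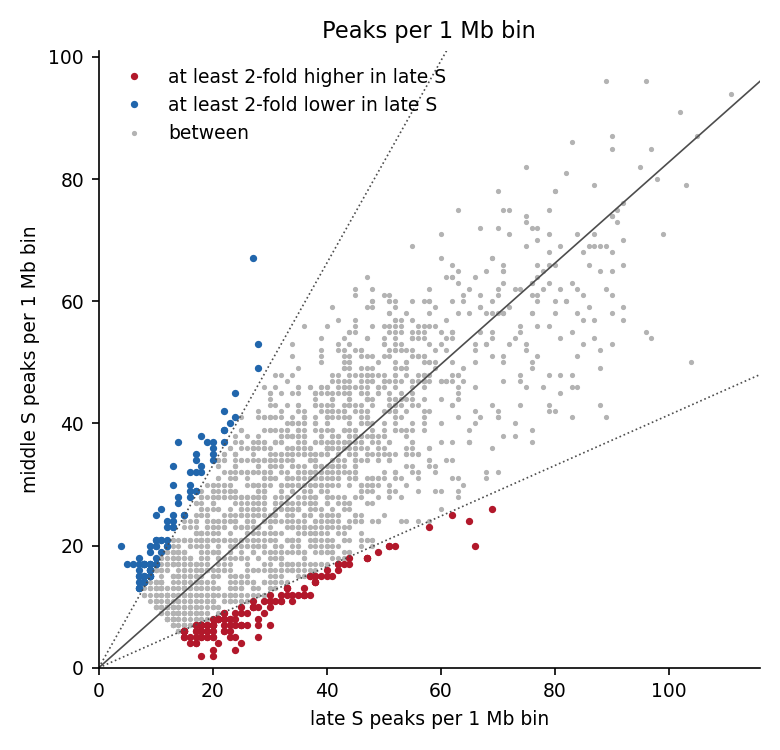
Late S peaks (horizontal axis) and middle S peaks (vertical axis) in each of the 2222 bins of 1 Mb with at least 20 peaks. The solid line is an equal share of both lists, and dotted lines mark 2-fold. The 136 bins at least 2-fold higher in late S are red and the 92 at least 2-fold lower are blue. Higher bins had a median of 24.5 peaks in late S against 8 in middle S, and lower bins 11 against 21.

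Bins higher in late S were most numerous on chromosome 2 (23 of 211 bins, 10.9%), chromosome 6 (20 of 159, 12.6%) and chromosome 5 (17 of 173, 9.83%), and chromosome 18 had 7 of 69 (10.1%). On chromosomes 4, 14, 15, 19, 20 and 22 there was none, though chromosome 4 had just 53 bins with enough peaks to compare. Its ratio as a whole was 1.08. Bins lower in late S made up 5 of 27 bins on chromosome 22 (18.5%), 12 of 68 on chromosome 17 (17.6%) and 7 of 44 on chromosome 19 (15.9%), and chromosomes 5, 6, 18, 20 and 21 had none. The highest ratio was at 85 to 86 Mb of chromosome 7, with 20 peaks in late S against 2 in middle S (8.27, 2.01 to 73.0). It was followed by 147 to 148 Mb of chromosome 2, with 18 peaks in late S against 2 in middle S, and by 63 to 64 Mb of chromosome 18, with 24 in late S against 3 in middle S. The lowest ratio was at 40 to 41 Mb of chromosome 17, with 4 peaks in late S against 20 in middle S (0.165, 0.0411 to 0.494). Next were 1 to 2 Mb of chromosome 17, with 5 peaks in late S against 17 in middle S, and 130 to 131 Mb of chromosome 9, with 6 in late S against 17 in middle S. Covered length sums the widths of the same peaks, so it is not independent of the counts that chose these bins. In 19 of the 20 most extreme bins it gave the same direction. The exception, 91 to 92 Mb of chromosome 13, had 27 peaks over 858 kb in late S and 67 peaks over 499 kb in middle S.

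Neighbouring bins tended to differ in the same direction. Among 2002 pairs of adjacent bins, the log2 ratios of neighbours had a Pearson r of 0.532, and 70.8% of the pairs lay on the same side of 1. Runs of at least 3 adjacent bins, each at least 1.5-fold in one direction, numbered 34 higher in late S (131 bins) and 29 lower (105 bins), each set on 14 chromosomes. For comparison, 380 bins were 1.5-fold higher in late S (percent called 17.1) and 344 were 1.5-fold lower (percent called 15.5).

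The longest run higher in late S covered 9 bins, 22 to 31 Mb of chromosome 5, with 482 peaks in late S against 225 in middle S and a ratio of 1.77 (1.51 to 2.09). A run of 8 bins at 78 to 86 Mb of chromosome 7 had 198 peaks in late S against 79 in middle S (2.07, 1.59 to 2.73). Runs of 6 bins lay at 187 to 193 Mb of chromosome 1, with 301 peaks in late S against 127 in middle S, at 78 to 84 Mb of chromosome 12, with 163 against 67, and at 76 to 82 Mb of chromosome 2, with 131 against 51. Covered length, summed over the same peaks, was also higher in late S in all of these stretches. On chromosome 5 it was 1085 kb against 505 kb in middle S.

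Lower in late S, the longest run covered 7 bins, 42 to 49 Mb of chromosome 17, with 129 peaks in late S against 200 in middle S and a ratio of 0.534 (0.424 to 0.669). The first 5 Mb of the same chromosome formed a further run, with 51 peaks in late S against 103 in middle S (0.410, 0.287 to 0.578). Among 12 runs of 4 bins, those with the most late S peaks were at 34 to 38 Mb of chromosome 20, with 134 peaks in late S against 183 in middle S, at 90 to 94 Mb of chromosome 13, described above, and at 48 to 52 Mb of chromosome 12, with 90 against 153. Covered length, which sums the widths of the same peaks, was lower in late S in each of these runs but that of chromosome 13.

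Early S took a middle place in most of these regions, by its own share of peaks. The 136 bins higher in late S held 3.76% of the early S list, 1.97% of the middle S list and 4.68% of the late S list. The 92 bins lower in late S held 2.58% of the early S list, 3.32% of the middle S list and 1.43% of the late S list. In 111 of the 136 bins and 77 of the 92, the early S share lay between those of late S and middle S, as it did in 1073 of all 2222 bins. The bins were chosen as extreme in the other 2 lists, so these counts are a description only.

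Shared sites within a region shifted in reads as the region did in peaks. Of the 80 bins higher in late S that held at least 5 shared pairs, 68 had a median relative read ratio above 1, and the median over these bins was 1.20. Of the 75 such bins lower in late S, 58 had one below 1, with a median of 0.860. Over all 2062 bins with at least 5 pairs, 994 were above 1. Across those bins the log2 peak ratio and the log2 read ratio had a Pearson r of 0.534. Both measures come from the same libraries.

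The regions also differed in binding of pSIRT1 (SIRT1 phosphorylated at T530) and pMCM2 (MCM2 phosphorylated at S139), mapped by ChIP-seq in K562 fractions and not used to choose them. Bins higher in late S had a median of 9 pSIRT1 peaks of late S, against 85 in bins lower in late S and 37 over all 2222 bins. For pMCM2 of late S the medians were 5.5, 18 and 16 peaks, and for pMCM2 of middle S they were 3, 15 and 13. The late S stretch at 22 to 31 Mb of chromosome 5 held 106 pSIRT1 peaks of late S in 9 bins, and the stretch at 42 to 49 Mb of chromosome 17 held 714 in 7 bins.

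All bins were then ordered by the number of peaks of each of 11 K562 ChIP lists and divided into 5 groups of near equal size. For every list, late S was over-represented where binding was sparse and under-represented where it was dense. By late S pSIRT1, the late over middle ratio was 1.54 in the sparsest group (1 to 14 peaks per bin) and then 1.17, 0.990 and 0.848, down to 0.751 in the densest (82 to 168 peaks per bin). Over the 11 lists the ratio was 1.20 to 1.54 in the sparsest group and 0.726 to 0.901 in the densest, and in 10 of 11 it fell at each step. Without chromosomes 17, 19 and 22, a choice made after seeing the data, these ranges were 1.20 to 1.54 and 0.743 to 0.907. The 136 bins higher in late S included 115 from the sparsest late S pSIRT1 group and 0 from the densest, and the 92 lower bins 5 and 50. Over the 11 lists the sparsest group held 72 to 115 of the higher bins, and the densest 0. For the lower bins these ranges were 3 to 14 and 5 to 54, and the lists were less alike. By pMCM2 of G2 the lower bins went the other way, with 14 in the sparsest group and 5 in the densest. Reads at shared sites followed the late S pSIRT1 groups, with a median relative ratio per bin of 1.16 in the sparsest and 0.843 in the densest.

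Ordering the bins by early S nascent-strand peaks gave no such slope. From the fewest to the most early S peaks the late over middle ratios were 0.982, 1.10, 0.992, 0.943 and 0.981. In the sparsest late S pSIRT1 group lay 13.7% of early S peaks, 10.1% of middle S peaks and 15.6% of late S peaks. In the densest group lay 18.36% of early S peaks, 21.36% of middle S peaks and 16.04% of late S peaks. Early S thus lay between the other 2 in the sparsest and in the densest group of all 11 ChIP lists. Base composition and gene density of the bins were not used here, so their part in these shifts was not tested.

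**Figure D5:**
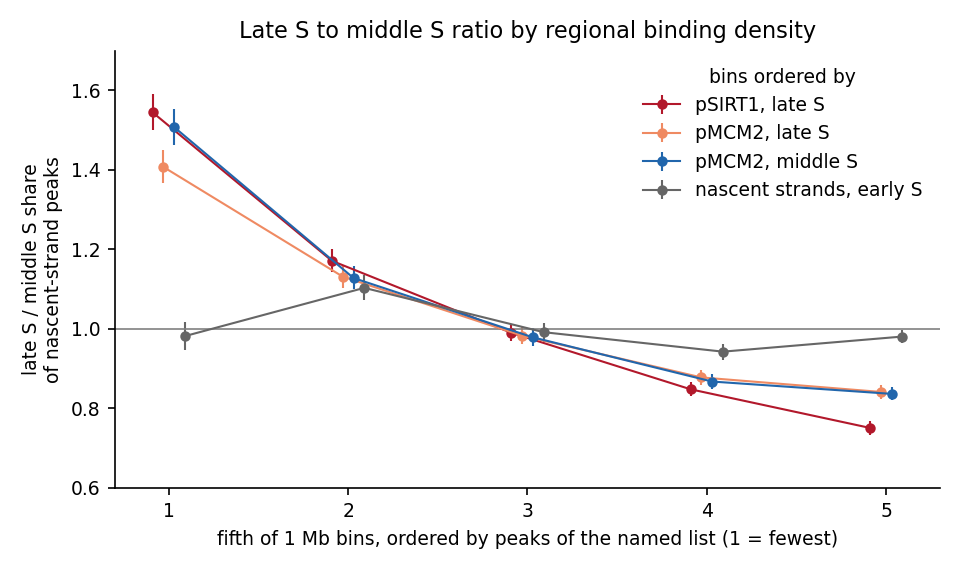
Share of late S nascent-strand peaks divided by share of middle S peaks (vertical axis) in 5 groups of 1 Mb bins ordered by the number of peaks of another K562 list, from fewest to most. Bars are exact 95% binomial intervals (counting error only). The ratio falls from 1.54 to 0.751 with late S pSIRT1 density and also falls with pMCM2 density, but stays between 0.943 and 1.10 with early S nascent-strand density.

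Chromosome ends showed a smaller shift in the same sense as the dense bins. Within 5 Mb of the outermost peaks of each chromosome lay 6.42% of late S peaks and 7.41% of middle S peaks, a ratio of 0.866 (0.833 to 0.901). Beyond 20 Mb from the ends the ratio was 1.03 (1.02 to 1.05). Early S had 6.50% of its peaks near the ends.

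At single sites the same lists separated the classes of peaks. Of the peaks of late S alone, 17.4% overlapped pSIRT1 of late S, against 32.9% of the peaks of middle S alone and 40.9% of shared late S peaks. For pMCM2 of middle S the shares were 7.998, 14.48 and 26.25%, and for pMCM2 of late S 7.946, 13.22 and 22.98%. In all 11 ChIP lists, peaks of middle S alone overlapped more often than those of late S alone, and shared peaks most often. The same order held in all 11 among peaks of 1 to 2 kb, a width window chosen after seeing the data, with 15.6, 27.0 and 35.3% for pSIRT1 of late S. Late S sites that were absent from middle S were thus less often at late S pSIRT1 or pMCM2 peaks than middle S sites absent from late S.

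Overlap with early S nascent strands set shared sites apart from both other classes. Of shared late S peaks, 74.0% overlapped early S, against 32.5% of peaks of late S alone (32.1 to 33.0) and 34.3% of peaks of middle S alone (33.8 to 34.9). The difference of -1.78 percentage points between the unshared classes shrank to -0.220 among peaks of 1 to 2 kb. Most shared sites were thus present in all 3 fractions, and most sites of late S or middle S alone had no early S peak.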

How the data were processed

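Nascent strands of K562 S-phase fractions were analysed from the peak lists deposited by the authors, 1 library per fraction. Per the submitters' processing notes, coordinates are on hg19 and MACS and SICER were used, with no settings given. Per the labels, peaks were called against sheared genomic DNA. No aligner is named in the sources used here. The lists deposited by the authors hold, for each region, a whole number that was read as a count of reads, with no scaling across libraries. Of the ChIP lists, which hold counts or, for pSIRT1 in middle S and G2, a decimal score deposited by the authors, only positions were used.

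Other chromosomes were left out, and each peak went to the bin that holds its middle. Numbers were divided by list totals, and pair reads by the median pair. With 1 library a side no test was possible. Bins and pairs were called past 2-fold and chromosomes at 0.8 or below or at its inverse or above. The named bins were the 10 highest and the 10 lowest, the named runs the 5 longest each way, and the named peaks and pairs the 5 most extreme each way. No gene names or sequences are given, since no hg19 annotation was used here. Bin calls and overlap counts were tested on simulated data. The comparison, lists and rules were chosen with earlier results of these data known. Computation was in Python 3.11.15 with scipy 1.17.1, pandas 2.3.3 and numpy 2.4.6, and plots in matplotlib 3.10.9.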

Additional observations from a re-analysis of the deposited data

How the results depend on the processing

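No paired analysis was possible because each fraction had 1 library, and no library could be left out. By covered length in place of peaks, the ratio of late S to middle S was 1.07, bins 2-fold higher and lower in late S numbered 215 and 196, and chromosomes at 0.8 or below, or at its inverse or above, 7 (1 higher, 6 lower). The share of late S peaks also in middle S was 48.3% with an overlap of 50% of the shorter peak, 53.7% within 1 kb, 48.2% for the 50% of peaks with most reads, 55.2% with equal list lengths and 43.3% for 200 bp at the middle. For middle S peaks also in late S these were 57.8, 63.5, 57.6, 55.2 and 50.1%, so with equal list lengths the shares of the lists were alike. At least 40 peaks per bin left 50 bins higher (3.14% of 1591 tested) and 34 lower (2.14%), so most calls lay in bins with fewer peaks. Scaling within chromosomes left 58 bins lower, 50 of them among the 92. By reads 5 chromosomes passed these limits, and with the 50% of peaks with most reads 7. Pairs 2-fold higher and lower in late S numbered 1280 and 892 by reads per kb, 66 and 45 with widths within 1.5-fold and 1032 and 1240 with at least 50 reads in each list. The early S overlap of peaks of late S alone minus that of middle S alone was -4.89 percentage points for the 50% of peaks with most reads and -0.220 for peaks of 1 to 2 kb. The causes of these changes were not tested. Depth is unknown, and its part in the lower sharing of weak peaks was not tested.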
